A study of Mus musculus with 3 samples.

Results

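The 10 genes described here encode enzymes that build purine and pyrimidine nucleotides from small precursors in mouse CD4 T cells. They were chosen by gene symbol, as enzymes of these pathways. Of the 23282 gene rows measured, 10 carried these symbols, namely 7 purine genes (Ppat, Paics, Pfas, Gart, Atic, Adsl and Impdh2) and 3 pyrimidine genes (Cad, Dhodh and Umps). The cells were taken from the lymph nodes and spleens of C57BL/6 mice (C57BL/6J in the study's methods), females of 6 to 8 weeks where no other age is given. All cells were stimulated with antibodies to CD3 and CD28 at 2 µg/ml and kept for 72 h in 1 of 3 media. Complete medium (CM) was RPMI-1640 with 10% fetal bovine serum. Dialyzed medium (DM) was RPMI lacking amino acids, with 10% serum that had been dialyzed to remove small molecules. DM+Met was the same dialyzed medium with 30 µM methionine added. Each medium had 2 libraries, and the labels do not say whether these came from separate cultures or animals, although the study describes them as biologically independent. If they are technical, the p-values measure technical spread only.

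Purine synthesis assembles the ring on ribose phosphate, step by step, and ends in inosine monophosphate (IMP), from which adenine and guanine nucleotides branch. Pyrimidine synthesis builds the ring first and attaches the ribose phosphate afterwards, giving uridine monophosphate (UMP). Both pathways take nitrogen from glutamine and aspartate, the purine pathway also takes glycine and one-carbon units carried by folate, and resting T cells switch both on when they are activated and prepare to divide.

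The deposited values are log2 of TMM-scaled CPM plus 1, where CPM is a gene's reads relative to library size and TMM a scaling that evens out composition between libraries. RNA was read near the 3′ end of each transcript, so a long transcript gives no more reads than a short one and levels of different genes are set side by side without dividing by length. Depth was 8504742 to 12377285 reads per library, and all 10 genes had enough reads to be tested, from 66 for Dhodh to 3796 for Paics. The ribosomal precursor Rn45s took 15.5% and 20.1% of reads in DM+Met and 31.0% to 38.3% in CM and DM, and TMM gave scaling factors of 1.22 and 1.16 to the DM+Met libraries, against 0.897 to 0.938 for the others. The DM libraries correlated less with each other (r = 0.919 across genes) than with the DM+Met libraries, at r = 0.925 and 0.921 for DM library 1 and 0.947 and 0.940 for DM library 2. Libraries of CM correlated at r = 0.938 and those of DM+Met at 0.973. CD4 T cell markers summed to 1371 to 1735 CPM in every library, against 30.6 to 77.2 for CD8 T and NK cell markers, 57.6 to 95.3 for B cell markers and 125 to 236 for myeloid markers. Most of the myeloid sum came from a single gene, Cst3, with log2 levels of 6.70 to 7.55. No other myeloid marker exceeded 4.29, the highest level of Cd68.

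The 10 genes lie on 7 chromosomes of mouse assembly GRCm38 (mm10), the build named in the submitters' processing notes. Ppat and Paics, which act at separate steps of the purine pathway, start head to head on chromosome 5. Ppat spans chr5:76913249-76951578 on the minus strand and Paics spans chr5:76951307-76967509 on the plus strand, and their first 272 bases overlap. Cad lies on the same chromosome, at chr5:31054780-31078479 on the plus strand. Atic spans chr1:71557150-71579631 and Impdh2 spans chr9:108560286-108565584, both on the plus strand. Pfas (chr11:68985697-69008460), Gart (chr16:91621186-91646952), Dhodh (chr8:109591343-109608673) and Umps (chr16:33954782-33967038) are on the minus strand, and Adsl (chr15:80948490-80970946) is on the plus strand.

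The letters CACGTG, a palindromic E-box that reads the same on both strands and is known as a binding site of MYC and related factors, occurred within the first 150 bases of the transcript of 4 of the 10 genes. These were Paics, Impdh2, Cad and Atic, and all 4 are shown. The same 4 genes lay lower in both DM libraries than in both CM libraries, as described further on, but of them only Paics and Impdh2 passed the test. Among all tested genes, 54.1% did not overlap between DM and CM. Whether the motif has a part in these levels was not tested. The motif began at base 59 of the Paics transcript, 41 of Impdh2, 78 of Cad and 65 of Atic, in GENCODE M21 models of GRCm38. Each stretch below lies in the first exon, is written in the direction of the gene (plus strand for all 4), and has the motif in capitals.
Paics, chr5:76951353-76951382: ctactttctctgCACGTGggaggctccgtt
Impdh2, chr9:108560314-108560343: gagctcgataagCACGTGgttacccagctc
Cad, chr5:31054845-31054874: cgcgcagcgagcCACGTGgaccaactccgg
Atic, chr1:71557202-71557231: tgcctgcctacgCACGTGgcctgtccgtcc
The Paics stretch also lies within the 272 bases that Paics shares with Ppat. Across 21777 protein-coding genes, expressed in these cells or not, 2.60% held CACGTG in the first 150 bases of 1 chosen transcript. In the RefSeq promoter windows (GRCm38.p6, 250 bases before to 50 after the start), 8 of the 10 genes were listed, and 3 of the 8 held the motif, against 7.15% of 32851 windows. Paics had it 203 bases before the start, Atic 7 bases before, and for Impdh2 it was the stretch already shown, 110 bases before the start used by RefSeq. Both of the former are given here because each gene then has a second copy near its start.
Paics, chr5:76951087-76951116: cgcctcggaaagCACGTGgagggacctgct
Atic, chr1:71557137-71557166: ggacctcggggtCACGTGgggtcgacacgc
The letters TGATGNAA, a pattern known from genes that respond to amino acid shortage through ATF4, were searched on both strands. They were found in none of the 10 transcript starts and none of the 8 promoter windows, against 1.46% and 3.97% of all genes' starts and windows. At such low rates none is the likely outcome for so few genes, so the search could not show a lack of the pattern. These matches describe letters in the sequence. No binding was measured, and the windows were searched after the values of the genes were known.

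Paics encodes the bifunctional enzyme that carboxylates the purine intermediate AIR and joins aspartate to it. It was the most abundant of the 10 transcripts in all 6 libraries and took 31.4% to 62.1% of their summed CPM. Its log2 level was 8.76 and 8.23 (CM), 6.74 and 7.46 (DM), and 7.39 and 7.24 (DM+Met). All 4 libraries from dialyzed medium lay below both CM libraries, and the DM and DM+Met libraries overlapped. Paics fell by 1.40 on the log2 scale in DM against CM, which is 2.63-fold on the scale of CPM plus 1 (SE 0.25, 95% confidence interval −1.96 to −0.84, limma adjusted p = 0.0059). It also fell in DM+Met against CM, by 1.18 (SE 0.25, limma adjusted p = 0.0122). Between DM+Met and DM the difference was 0.22 with an interval of −0.34 to 0.78. The call between DM and CM depended on single libraries. Without DM library 1 it was −1.04 (limma adjusted p = 0.087), and without CM library 1 it was −1.13 (adjusted p = 0.0901). The difference between DM+Met and CM was likewise −0.92 without CM library 1, −1.26 without DM+Met library 1 and −1.10 without DM+Met library 2, and none of these passed (limma adjusted p = 0.146, 0.139 and 0.185).

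Ppat, which shares its start region with Paics, encodes the amidotransferase that commits phosphoribosyl pyrophosphate (PRPP) to purine synthesis. Log2 levels of Ppat were 4.80 and 4.31 for CM, 4.01 and 5.04 for DM and 4.44 and 4.32 for DM+Met. The DM libraries lay on either side of all the others, and no medium stood apart. The difference between DM and CM was −0.03 with an interval of −0.93 to 0.87. Leaving out DM library 2 made it −0.55 and leaving out DM library 1 made it 0.48, so no direction can be given. Within each library, the log2 level of Paics exceeded that of Ppat by 3.96 and 3.92 in the CM libraries, 2.73 and 2.42 in the DM libraries and 2.95 and 2.92 in those with methionine. This difference within a library depends little on how libraries are scaled, and it was larger in both CM libraries than in the other 4. It was computed after the values had been seen and was not tested.

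Gart and Pfas act between Ppat and Paics. Gart is a trifunctional enzyme that adds glycine and a formyl group from folate and closes the smaller ring of the purine, and its log2 level was 5.51 and 5.18 (CM), 5.57 and 4.86 (DM), and 5.44 and 5.71 (DM+Met). The media overlapped, and DM differed from CM by −0.13 (interval −0.80 to 0.54). Pfas, which adds nitrogen from glutamine, had log2 levels of 4.30 and 3.84 for CM, 5.02 and 3.54 for DM and 4.24 and 4.06 for DM+Met. The DM libraries of Pfas differed by 1.49, the greatest gap between libraries of a medium for any of the 10 genes, and both CM libraries lay within it. The difference between DM and CM was 0.21 (interval −0.89 to 1.31), which became −0.53 when DM library 1 was left out and 0.95 when DM library 2 was. Changes of Pfas inside that interval were not excluded with 2 libraries per medium.

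Adsl and Atic act after Paics. Adsl, a lyase that releases fumarate both before IMP and on the way to AMP, had log2 levels of 3.82 and 4.82 in the CM libraries, 4.29 and 4.43 in the DM libraries and 4.31 and 4.52 in those with methionine. The CM libraries enclosed all the others, and DM differed from CM by 0.04 (interval −0.84 to 0.93). Atic adds the last folate-derived carbon and closes the ring to IMP. Its log2 level was 5.49 and 5.73 (CM), 5.44 and 4.84 (DM), and 5.17 and 5.71 (DM+Met). Both DM libraries lay below both CM libraries, narrowly for DM library 1, and the difference of −0.47 did not pass the test (SE 0.30, limma adjusted p = 0.311). Leaving out DM library 1 gave −0.77, and leaving out DM library 2 gave −0.17. In DM+Met, Atic differed from CM by −0.17 and overlapped it.

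Impdh2 oxidizes IMP to xanthosine monophosphate and controls the flow into guanine nucleotides. It is the isoform known for its rise in proliferating lymphocytes and is a target of mycophenolic acid. In log2 units it measured 5.53 and 5.79 for CM, 4.35 and 4.12 for DM and 4.70 and 4.93 for DM+Met, so the 3 media did not overlap and stood in the order CM, DM+Met, DM. Impdh2 fell by 1.43 on the log2 scale in DM against CM, 2.70-fold on the scale of CPM plus 1 (SE 0.29, interval −2.07 to −0.79, limma adjusted p = 0.00941). In DM+Met it was higher than in DM by 0.58 (SE 0.29, interval −0.06 to 1.22), which did not pass the test (limma adjusted p = 0.556). Against CM, DM+Met was lower by 0.85 (limma adjusted p = 0.074), which also missed the threshold. The neighbours in this order, DM+Met and either other medium, were thus not shown to differ. The fall in DM kept its size when single libraries were left out (−1.56 to −1.30), while its adjusted p moved to between 0.0489 and 0.0668 and missed the threshold without either CM library, DM library 2 or DM+Met library 2.

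Reads of Impdh2 may include those of other loci, or may be lost where they match another locus equally well. Of the last 500 bases of its transcript, 435 align with a processed pseudogene, Impdh2-ps, at 99.8% identity, and its 3′ end overlaps that of Ndufaf3, on the opposite strand, by 48 bases. The treatment of strand and of multiply matching reads is not given in the sources used here. Ndufaf3, which encodes an assembly factor of mitochondrial complex I, had log2 levels of 4.48 and 4.08 in the CM libraries, 3.10 and 3.83 in the DM libraries and 3.99 and 4.40 in those with methionine, so it was also lower in both DM libraries, and its part in the values of Impdh2 was not tested. The 3′ end of Gart is likewise overlapped by an antisense gene, Gm15964. No other gene's transcript matched the last 500 bases of the other 8 at 95% identity over 100 bases or more.

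Cad carries the initial 3 activities of pyrimidine synthesis in a single protein, from glutamine and bicarbonate to dihydroorotate. Log2 levels of Cad were 5.71 and 5.29 (CM), 4.78 and 4.37 (DM), and 5.06 and 5.11 (DM+Met). As for Impdh2, the media did not overlap and stood in the order CM, DM+Met, DM. The difference of −0.92 between DM and CM narrowly missed the threshold over all genes (SE 0.29, interval −1.57 to −0.28, unadjusted p = 0.00983, limma adjusted p = 0.055). It passed in 1 of 17 alternative settings, in which only genes with at least 10 reads in every library were tested (adjusted p = 0.0456), while the highest adjusted p of the 17 was 0.222. Leaving out single libraries gave −1.13 to −0.72. DM+Met was 0.51 above DM (interval −0.14 to 1.15) and 0.42 below CM (interval −1.07 to 0.23), and neither difference passed.

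Dhodh, the mitochondrial enzyme that oxidizes dihydroorotate to orotate and passes electrons to ubiquinone, was the least abundant of the 10 by its mean in each medium. Its log2 level was 3.09 and 3.49 for CM, 3.42 and 3.50 for DM and 3.52 and 3.98 for DM+Met, with 66 to 176 reads per library. Both DM+Met libraries lay above the other 4, yet the difference from CM was 0.46 with an interval of −0.53 to 1.45. Umps, which joins orotate to PRPP and decarboxylates the product to UMP, had log2 levels of 3.73 and 4.49 in the CM libraries, 4.48 and 4.56 in the DM libraries and 3.81 and 3.86 in those with methionine. Both DM+Met libraries of Umps lay below both DM libraries. That difference was −0.69 (interval −1.55 to 0.17, limma adjusted p = 0.615) and did not pass.

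**Figure D1:**
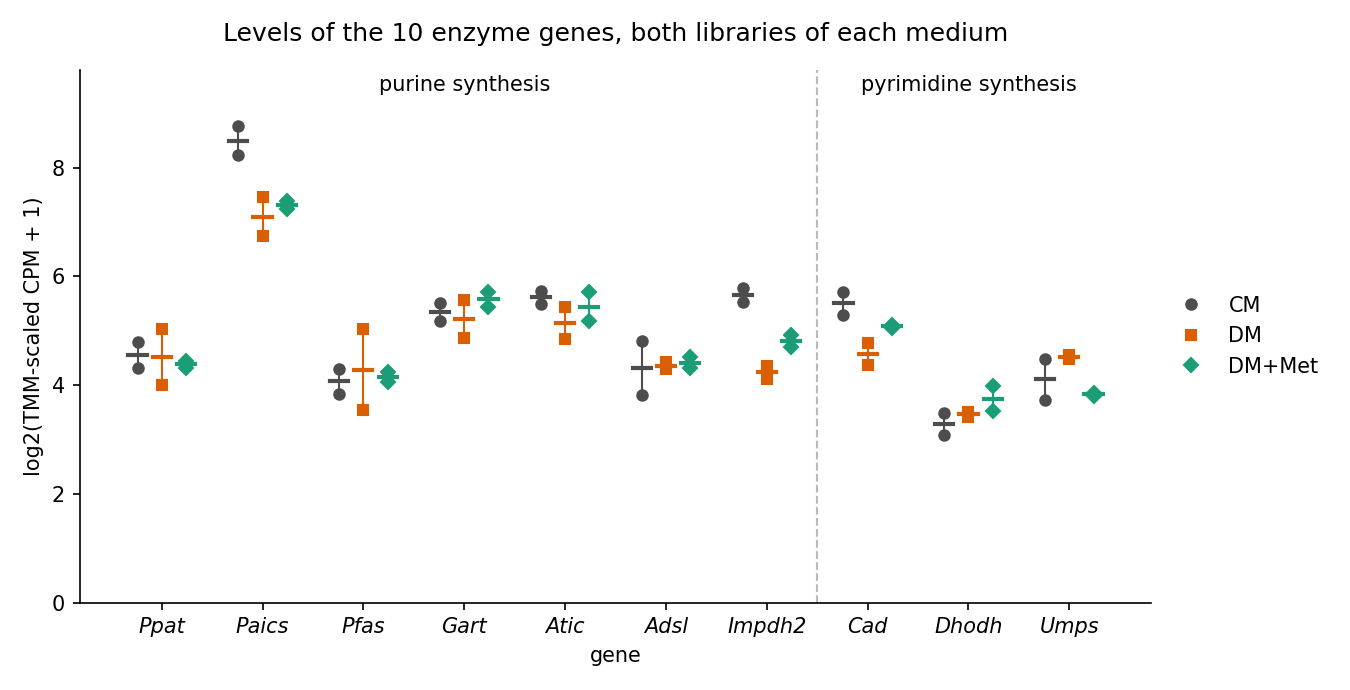
Level of each gene (log2 of TMM-scaled CPM plus 1, vertical axis) in the 2 libraries of CM, DM and DM+Met. Points are libraries and short bars their means. Paics lies above the other 9 genes in every medium, Paics, Impdh2 and Cad are lower in all 4 dialyzed-medium libraries than in CM, and the DM libraries of Ppat and Pfas lie far apart.

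Set side by side, the 10 genes did not move as a block. Between DM and CM, 2 of 10 passed the test, Paics and Impdh2, both lower, where 16.9% of the 12770 tested genes passed and 9.07% passed and were lower. The libraries of the media did not overlap for 4 of the 10 (Paics, Impdh2, Cad and Atic, all lower in DM), against 54.1% of all tested genes. The share of the 10 that passed in either direction was thus near that of all genes. Leaving out CM library 1 left 0 of the 10, and leaving out CM library 2, DM library 1, DM library 2 or DM+Met library 2 left 1. The median difference of the 10 was −0.08, and that of all tested genes 0.07. The median of the 10 was not stable, at −0.51 without DM library 1, −0.29 without CM library 2, −0.24 without CM library 1 and 0.07 by library totals without Rn45s. The other 6 genes differed by −0.13 to 0.41, with intervals that reached from −0.93 to 1.31.

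Methionine added to DM gave no call among the 10. None passed the test in limma, none had an unadjusted p below 0.05, and none passed with limma-voom on the recovered reads. Without DM library 1, 2 of the 10 had an unadjusted p below 0.05, without a filter 1 did and by library totals 4 did, but none passed after adjustment. Of all tested genes, 7 (0.0548%) passed in this comparison. The media did not overlap for 4 of the 10 (Impdh2, Cad and Dhodh higher with methionine, Umps lower), against 41.0% of all tested genes. The median of the 10 was 0.25, and that of all tested genes 0.01. Leaving out DM library 1 moved the median of the 10 to 0.42, and leaving out DM+Met library 2 moved it to 0.045. These medians depend on scaling, since scaling by library totals, which counts Rn45s reads, moved the median of all tested genes to 0.34, that of the 10 to 0.60, and gave Impdh2 0.93 and Cad 0.86, while library totals without Rn45s gave 0.56 and 0.48.

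In DM+Met against CM, Paics was the only gene of the 10 that passed, and it was lower, where 15.3% of all tested genes passed and 8.36% passed and were lower. The media did not overlap for 4 of the 10 (Paics, Impdh2 and Cad lower, Dhodh higher), against 60.9% of all tested genes. The median of the 10 was −0.17, and that of all tested genes 0.06. By library totals, which moved the median of all tested genes to 0.41 and turned that of the 10 to 0.21, Paics differed by −0.79 (limma adjusted p = 0.0436), Impdh2 by −0.47 and Cad by −0.03. This comparison and the comparison of DM with CM share the CM libraries, so the low values of Paics in both are not independent of each other.

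**Figure D2:**
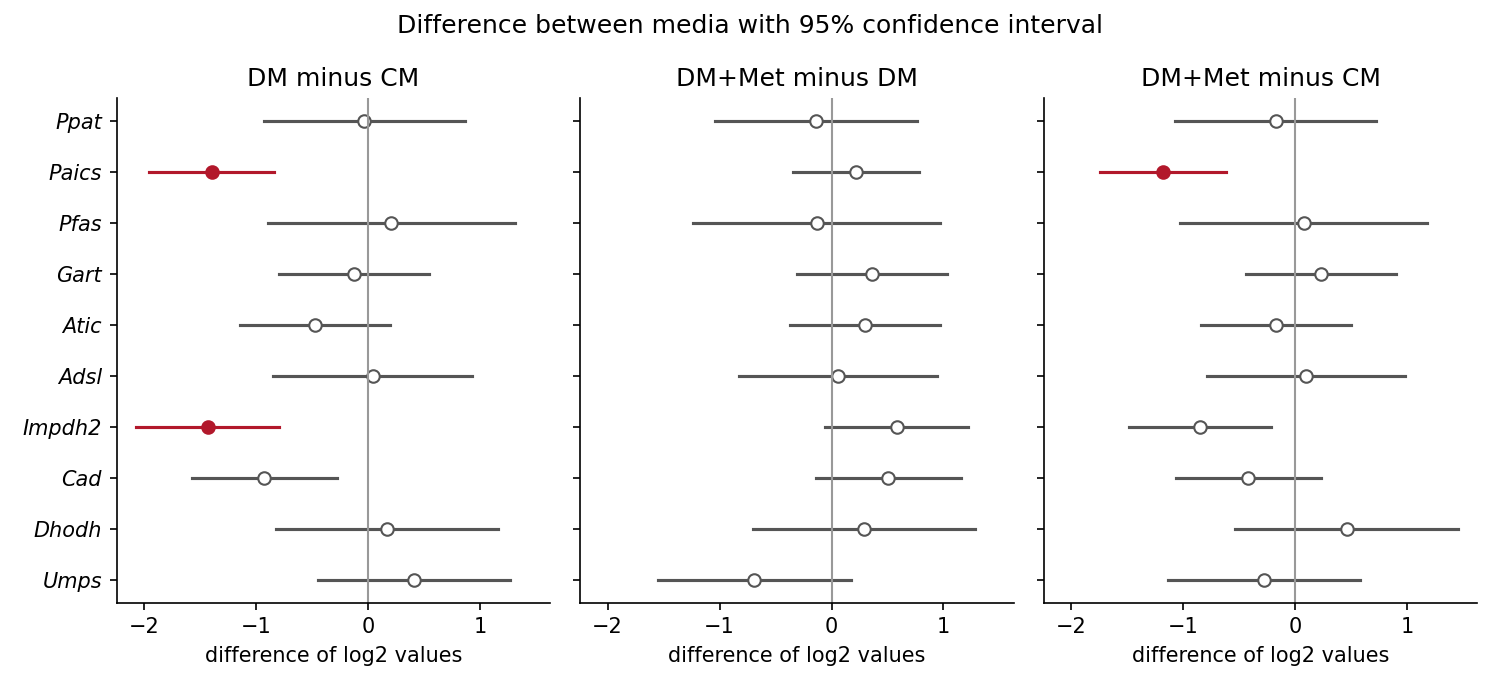
Differences of log2 values (horizontal axes) for the 10 genes in DM minus CM, DM+Met minus DM and DM+Met minus CM. Points are limma estimates and lines 95% confidence intervals, and filled red points passed at an adjusted p below 0.05. Paics and Impdh2 passed in the left panel, no gene in the middle panel and Paics alone in the right panel.

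Summed over genes, the purine enzymes reached 563 ± 88.0 CPM (SD, n = 2) for CM, 294 ± 21.2 for DM and 333 ± 8.20 for DM+Met. Paics made up most of that gap. The 6 purine genes without Paics summed to 197 ± 5.86 CPM (CM), 154 ± 27.3 (DM) and 174 ± 20.4 (DM+Met). The 3 pyrimidine genes summed to 70.5 ± 0.949 CPM (CM), 55.1 ± 3.46 (DM) and 58.8 ± 4.33 (DM+Met). In each of these sums both CM libraries lay above the other 4. The genes within a sum did not all move alike. In DM against CM, Cad differed by −0.92 on the log2 scale, but Dhodh by 0.17 and Umps by 0.41. Impdh2 differed by −1.43, and the remaining purine genes without Paics by −0.47 to 0.21. Libraries of the same medium differed by a median of 0.44 log2 units over the 10 genes for CM, 0.51 for DM and 0.19 for DM+Met, against 0.39, 0.47 and 0.26 over all tested genes.

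**Figure D3:**
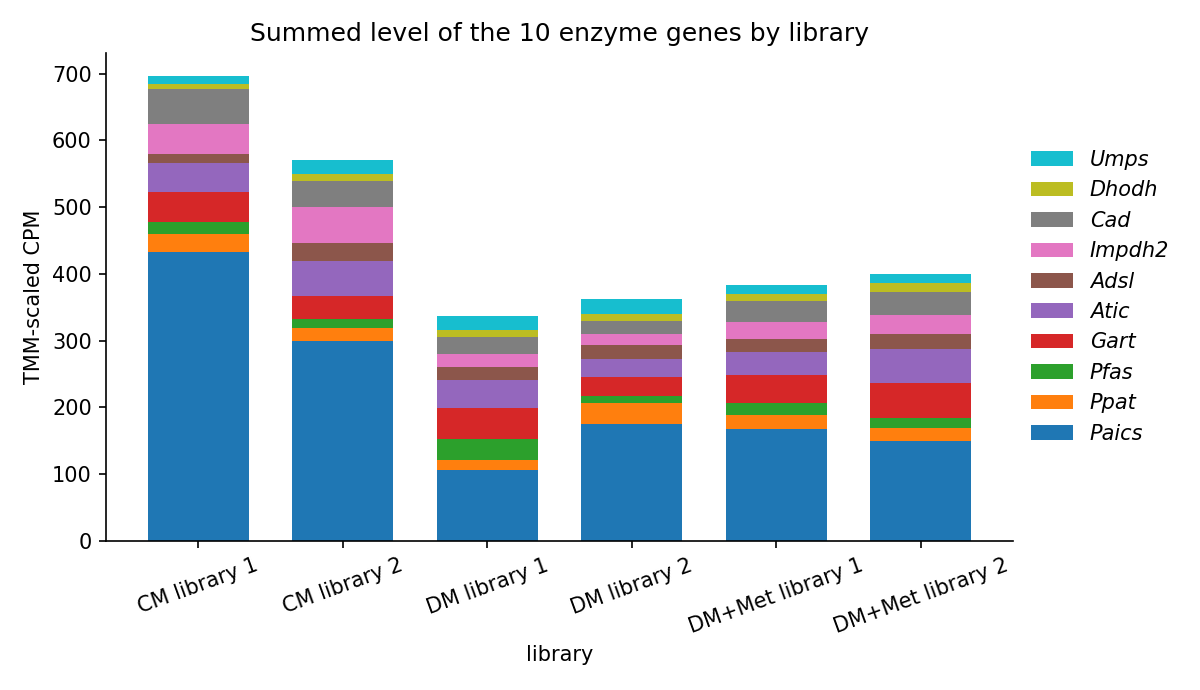
Summed TMM-scaled CPM of the 10 genes (vertical axis) in each library, stacked by gene from 0. The total was 570 to 696 in CM and 337 to 400.4 in the other 4 libraries, and the Paics segment at the base was the largest in each bar.

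Around the 10 enzymes, 11 lists held 104 further genes of nucleotide metabolism, of which 95 were tested. Between DM and CM, 22 of the 95 passed, 20 lower and 2 higher, beside 16.9% of all tested genes that passed and 9.07% that passed and were lower. The median difference over the 95 was −0.44, and that of all tested genes 0.07. The count of 22 rested on every library, since it was 4 without CM library 1, 8 without CM library 2 and 9 without any other. Of the 22, Rrm2 and Nme2 passed whichever library was left out, while 8 passed in none of these 6 fits, namely Impdh1, Dck, Dctd, Mthfd1, Asns, Phgdh, Got1 and Rrm1. All 22 kept their direction in the 6 fits, which have fewer samples than the full one. Without DM library 1, Impdh1 differed by −1.27, Ctps by −1.95, Uck2 by −0.96, Aprt by −1.35 and Rrm2 by −2.36, and of these 5 genes Rrm2 passed. None of the 95 passed in limma or in limma-voom between DM+Met and DM. Between DM+Met and CM, 20 passed, 17 lower and 3 higher, beside 15.3% of all tested genes that passed and 8.36% that passed and were lower. The count was 2 without either DM+Met library, 8 without CM library 1, 10 without CM library 2 and 15 without either DM library.

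Genes downstream of IMP and UMP were among those that fell. Of 9 genes in the branches from IMP to AMP and GMP, 8 were lower in DM and 3 of these passed, among them Impdh1 and Adssl1. Impdh1, the paralogue of Impdh2 that is known as the constitutive form, had log2 levels of 6.98 and 6.82 (CM), 6.29 and 5.62 (DM), and 5.24 and 5.62 (DM+Met). Its level was above that of Impdh2 in every library. Reads of Impdh2 may have been lost to its pseudogene, so this order of the paralogues is uncertain. Impdh1 fell by 0.94 in DM (limma adjusted p = 0.0365) and by 1.47 in DM+Met against CM (adjusted p = 0.00534). Between DM+Met and DM the estimates for the paralogues were −0.53 for Impdh1 and 0.58 for Impdh2, and neither passed. Gmps, which aminates xanthosine monophosphate to GMP, differed by −1.01 (limma adjusted p = 0.142). Adss, which takes IMP towards AMP, differed by −0.69 in DM (adjusted p = 0.0559) and fell by 1.20 in DM+Met against CM (adjusted p = 0.00581). Adssl1, the muscle isozyme of Adss, had 35 and 130 reads in CM, none in DM, and 5 and 0 in DM+Met.

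From UMP onwards, Ctps, which converts UTP to CTP and is known to be needed by proliferating lymphocytes, had log2 levels of 4.67 and 4.92 for CM, 1.91 and 2.84 for DM and 3.40 and 3.08 for DM+Met. It fell by 2.42 in DM (SE 0.48, limma adjusted p = 0.00966), more than any of the 10 synthesis enzymes. DM+Met was 0.87 above DM (interval −0.22 to 1.95) and did not pass. Of the other 7 genes in that list Nme2, a nucleoside diphosphate kinase, fell by 1.24 (adjusted p = 0.00151), and its reads may be divided with the similar gene Nme1.

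Salvage recycles bases and nucleosides in place of synthesis. Of 7 purine salvage genes, 5 were lower and 2 higher in DM. Those that passed were Aprt and Dck, both lower, and Dguok, which was higher. Aprt, which salvages adenine, had log2 levels of 7.15 and 6.86 in the CM libraries, 5.87 and 5.65 in the DM libraries and 5.91 and 6.39 in those with methionine, and fell by 1.24 in DM (limma adjusted p = 0.00672). Dck, a cytosolic deoxynucleoside kinase, fell by 1.66 (adjusted p = 0.044), and Dguok, the mitochondrial deoxyguanosine kinase, rose by 1.20 (adjusted p = 0.024). Hprt, which salvages hypoxanthine and guanine, differed by −0.42 (interval −0.90 to 0.07) and Adk, which phosphorylates adenosine, by −0.12 (interval −1.03 to 0.79). Of 6 tested pyrimidine salvage genes, 3 were lower and 3 higher in DM, and Uck2 and Tk1, both lower, passed. Uck2, a uridine and cytidine kinase, fell by 1.47 (adjusted p = 0.0243) and Tk1, the thymidine kinase of dividing cells, by 1.87 (adjusted p = 0.00475).

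In the 2 breakdown lists, 1 of 12 purine genes passed and rose, and neither of 2 tested pyrimidine genes passed. The gene that rose was Nt5e, which encodes CD73, a surface enzyme that turns AMP into adenosine. Its log2 level was 2.35 and 2.76 (CM), 4.52 and 5.55 (DM), and 4.89 and 4.94 (DM+Met), an increase of 2.48 in DM (limma adjusted p = 0.00476) and of 2.36 in DM+Met against CM (adjusted p = 0.00549). None of 4 tested nucleoside transporters passed.

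Other lists hold genes that supply the synthesis pathways or draw on the same precursors. Of 11 genes for PRPP and the pentose phosphate pathway 1 passed, Tkt, a transketolase, which fell by 1.79 in DM (limma adjusted p = 0.00238). Of 15 tested folate genes 2 passed and were lower, among them Mthfd1, which interconverts one-carbon folates and fell by 1.35 (limma adjusted p = 0.049). Of 12 genes that make or use the nitrogen donors, 9 were lower and 3 higher, and 4 of the lower ones passed. Asns, asparagine synthetase, which uses glutamine and aspartate, fell by 1.65 (adjusted p = 0.0202). Psat1, of serine synthesis, fell by 1.10 (adjusted p = 0.00591), Phgdh by 0.83 (adjusted p = 0.028) and Got1, an aspartate aminotransferase, by 0.79 (adjusted p = 0.0323). Among the 3 higher ones, Glul, glutamine synthetase, differed by 0.73 and did not pass (adjusted p = 0.0769).

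Deoxynucleotide supply had the most calls. In DM, 8 of 10 genes were lower and 5 of these passed, while 2 were higher and did not pass. Rrm2b, 1 of the 2 higher genes, differed by 1.08 in DM (limma adjusted p = 0.121). It rose by 1.65 in DM+Met against CM, where it passed. Rrm2, the regulated subunit of ribonucleotide reductase, had log2 levels of 6.41 and 6.10 for CM, 3.23 and 3.89 for DM and 3.30 and 3.61 for DM+Met, and fell by 2.69 in DM (limma adjusted p = 0.00164). Dut, which supplies dUMP and clears dUTP, fell by 1.80 in DM (limma adjusted p = 0.00222). Dctd, a deaminase that also supplies dUMP, passed (limma adjusted p = 0.0199) on few reads, 44 and 28 for CM, 0 and 1 for DM, and 24 and 17 for DM+Met. Rrm1, the large subunit of the reductase, fell by 0.91 (limma adjusted p = 0.029).

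**Figure D4:**
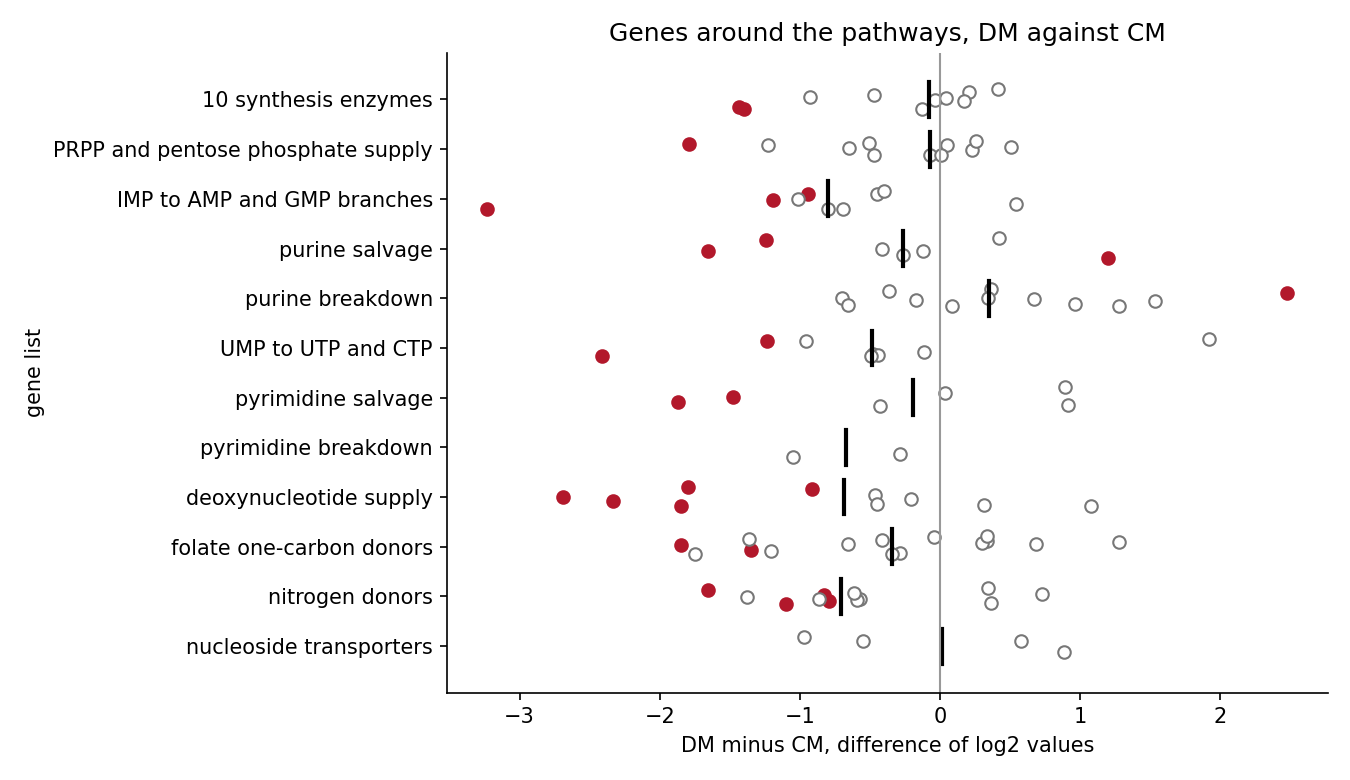
Difference of log2 values between DM and CM (horizontal axis) for the tested genes of the 10 synthesis enzymes and of each of the 11 lists around them. Points are genes, filled red where the adjusted p was below 0.05, and black bars are list medians. The medians were −0.08 for the synthesis enzymes, −0.80 for the branches from IMP, −0.69 for deoxynucleotide supply and 0.35 for purine breakdown.

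Markers of dividing cells moved in the same comparisons. All 10 of a list of proliferation genes passed and were lower in DM than in CM, with a median of −2.47, and 9 of 10 passed and were lower in DM+Met against CM. Their summed level was 1958 to 2047 CPM (CM), 398 to 407 (DM) and 335 to 363 (DM+Met). The ranges of the 10 synthesis enzymes were closer, 570 to 696 CPM in CM and 337 to 400.4 CPM in the other 4 libraries. In bulk RNA, fewer dividing cells and less RNA of these enzymes per cell cannot be told apart, and the part of cell division in the values of Paics, Impdh2 and the genes around them was not tested. Myeloid markers, mostly Cst3, summed to 156 and 125 CPM for CM, 236 and 135 for DM and 201 and 204 for DM+Met. All 7 myeloid markers were higher in DM than in CM, with a median of 0.69, and 1 passed. In DM+Met against CM, 5 were higher and 2 lower, and 0 passed. Lyz2 had 3 and 15 reads for CM, 77 and 85 for DM and 50 and 50 for DM+Met. CD8 T and NK cell markers summed to 73.4 and 77.2 CPM for CM, 39.4 and 30.6 for DM and 37.3 and 34.1 for DM+Met. Not every marker of this list followed its sum. Of the 4 tested, 2 were higher and 2 lower in DM+Met against CM. Cd8a fell by 1.76 (limma adjusted p = 0.0317), while Klrb1c, without reads in CM, rose by 2.10 (limma adjusted p = 0.0294). B cell markers summed to 95.3 and 80.8 CPM for CM, 76.1 and 75.8 for DM and 57.6 and 65.8 for DM+Met. These sums did not overlap between media, but the 5 markers did not all follow them. Against CM, 4 were lower and 1, Ms4a1, was higher, both in DM and in DM+Met. Ms4a1 had 80 and 43 reads for CM, 144 and 179 for DM and 179 and 209 for DM+Met. It did not pass in either comparison. Cd22 fell by 2.08 in DM+Met against CM (limma adjusted p = 0.0273), the only B cell marker that passed. The part of myeloid, CD8 T, NK and B cells in the result was not tested either.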

How the data were processed

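CD4 T cell RNA was sequenced with a 3′-end kit (Lexogen QuantSeq) from 500 ng of total RNA. The submitters' processing notes name Bowtie2, bedtools and mm10. The authors deposited log2 values of TMM-scaled CPM plus 1, with 3 decimals, for 23282 rows. Equal steps in these values gave back the reads of each gene, and at least 99.8% of values up to 300 reads lay within 0.1 of a whole number.

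The log2 values were fitted in limma 3.58.1 (R 4.3.3) with an intensity trend, all 6 libraries in 1 model, with Benjamini-Hochberg adjustment of p-values over the 12770 tested genes and a threshold of 0.05. A gene was tested when at least 2 libraries reached 10 reads at the median depth (0.951 CPM) and the total reached 15 reads. The script was tested on simulated data. Alternatives were 11 other settings and the omission of each library. The floor of 3 reads was a log2 value of 0.323 to 0.469. It covers counting error only.

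Loci and transcripts were from GENCODE M21, promoters from RefSeq, and copies were sought with BLAST 2.17.0. The 10 enzymes and the lists were chosen with earlier results of these data known. Beside the 10 enzymes, up to 4 genes with the greatest change among those that passed in DM against CM were named per list, and up to 2 in DM+Met against DM, with Impdh1, Gmps, Adss, Ctps, Hprt, Aprt, Adk and Uck2 always. Rrm1, Rrm2b, Ndufaf3, Glul and the single cell type markers were named after their values were seen. Some genes that the naming rule selects are not reported here.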

Additional observations from a re-analysis of the deposited data

How the results depend on the processing

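Libraries of the same number in different media did not deviate together (r = −0.02, 0.00 and −0.03 across genes), so the numbers were not taken as pairs. With the file number as a replicate block, 1947, 7 and 1797 genes passed in DM against CM, DM+Met against DM and DM+Met against CM, against 2154, 7 and 1952 without it, and 2, 0 and 1 of the 10 enzymes. Between DM and CM, 1329 genes and 1 enzyme passed without the intensity trend and 795 genes with the 2 media alone, and leaving out each library gave 541 to 1061 genes and 0 to 2 enzymes. Between DM+Met and DM, 55 genes passed by library totals, 2 without a filter, 27 when every library had to hold 10 reads, 13 at a pseudocount of 5, 21 in limma-voom and 14 with a robust prior. Without the trend it was 0 (1192 at an unadjusted p below 0.05), with the 2 media alone 0 (1303), and 0 whichever library was left out (431 to 2006), with none of the 10 enzymes in any setting. Between DM+Met and CM, 1265 genes and 0 enzymes passed without a filter, 944 and 0 without the trend, and leaving out each library gave 268 to 1622 genes and 0 to 1 enzymes. Genes higher in DM+Met were 45.3% of those that passed, and 76.3% by library totals. Between DM and CM they were 46.2%, and 59.6% by library totals without Rn45s.

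Paics passed in DM against CM in 14 of 17 alternatives (−1.76 to −1.04, not without the trend, CM library 1 or DM library 1) and in DM+Met against CM in 12 of 17 (−1.44 to −0.79). Impdh2 passed in DM against CM in 13 of 17 (−1.56 to −1.26). These kept their direction in all 17. Directions of enzymes that did not pass turned. In DM against CM without Rn45s in the totals, Ppat was 0.12 and Gart 0.025, and leaving out libraries gave −0.55 to 0.48 for Ppat, −0.53 to 0.95 for Pfas, −0.48 to 0.23 for Gart, −0.46 to 0.54 for Adsl and −0.031 to 0.37 for Dhodh. Between DM+Met and DM, Ppat was 0.21 and Pfas 0.21 by library totals, and leaving out libraries gave −0.65 to 0.37 for Ppat, −0.14 to 0.58 for Paics, −0.88 to 0.61 for Pfas, −0.0015 to 0.60 for Atic and −0.0465 to 0.16 for Adsl. Against CM, Ppat in DM+Met was 0.21, Atic 0.21 and Umps 0.094 by library totals, and leaving out libraries gave −0.42 to 0.073 for Ppat, −0.15 to 0.31 for Pfas, −0.44 to 0.10 for Atic, −0.40 to 0.60 for Adsl and −0.65 to 0.10 for Umps. The cause of these turns was not tested. With 2 libraries per medium, differences inside the stated intervals were not excluded.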
